A study of Homo sapiens with 42 samples.

Results

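OCI-Ly3 cells that had received the MALT1 inhibitor compound 3 for 24 h were compared with OCI-Ly3 cells kept for the same time in DMSO, its solvent, by sequencing of mRNA. Each gene model of the deposited tables is a numbered row, and a row was a member of the comparison when it reached 1 CPM (a read count scaled to the library's total) in 3 or more of the 6 libraries. This held for 11526 of 23250 rows. The files do not pair row numbers with gene names, so the response is described by how many rows moved, how far, from which level and in which libraries, and MALT1 and marker genes of B cells could not be looked up.

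OCI-Ly3 and TMD8 are established human cell lines of diffuse large B-cell lymphoma of the activated B cell-like type. The comparison held 3 libraries of OCI-Ly3 with 100 nM compound 3 for 24 h and 3 with DMSO for 24 h. It was set beside 3 and 3 OCI-Ly3 libraries with the same agents for 8 h, 3 and 3 TMD8 libraries for 24 h, and 9 OCI-Ly3 libraries, made after lentiviral delivery of 1 of 2 hairpin RNAs against MALT1 or of a non-targeting one, with 3 libraries each. How long the hairpin cells were kept before harvest was not given in the sources used here. Nothing in the labels states that replicates were grown separately, and p-values therefore describe the spread among these libraries alone, which may be technical.

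MALT1 is a protease and a scaffold. It takes part in the signalling from antigen receptors to the transcription factor NF-κB, and it also cuts proteins that restrain this pathway or degrade mRNA. Lymphomas of the activated B cell-like type often keep this pathway switched on. The title of the series calls its inhibitors covalent, that is, they bond to the protein.

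The 6 libraries stood for 34.7 to 40.9 M reads each, and 75.6% to 79.6% of these lay in the rows. A CPM of 1 was thus worth 34.7 to 40.9 reads. Replicate libraries differed by more than sampling noise (chi-square per degree of freedom 11.6 to 49.0 in the 6 pairs of replicates), and none was a copy of another. DMSO libraries varied more than those with the compound, with a median SD over rows of 0.172 against 0.0949 log2 units. Of the 11526 rows, 24 to 49 in a DMSO library and 2 to 13 in a compound library were over 1 log2 unit away from the average of their remaining replicates. CPM is a share of a library's reads, so less RNA per cell and fewer cells that make an RNA cannot be told apart, and it is not divided by transcript length, so levels of different rows were not ranked as abundance.

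Compound 3 for 24 h raised 657 rows and lowered 474, which is 5.7% and 4.11% of the members and 9.81% together (limma on log2(CPM + 1), libraries of the same number taken as a pair, two-sided adjusted p below 0.05). The changes were small. The raised rows had a median log2 difference of 0.48, or 1.40-fold, and the lowered rows one of -0.34, or 1.27-fold on the log2(CPM + 1) scale. Of the raised rows, 217 rose at least 1.5-fold, 51 at least 2-fold and 7 at least 4-fold. Of the lowered rows, 56 fell at least 1.5-fold, 8 at least 2-fold and 0 at least 4-fold. Counts and shares of members by fold, here and below, are on the log2(CPM + 1) scale, which shrinks changes at low CPM. In CPM itself the row that fell most went to 0.121 of its DMSO mean. Over all members the median difference was -0.00 and 49.5% of rows lay above 0. The call depends on the pairing: without it 102 rows, 0.885%, were called, 84 higher and 18 lower, all of them among the 1131. Without the pair numbered 2 the count was 409, and without that numbered 3 it was 478.

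The raised rows held 40068, 38107 and 35967 CPM in sum in the DMSO libraries 1 to 3, and 50756, 54259 and 49934 CPM in the compound libraries. They thus went from 4.74% to 5.03% of the reads in rows to 6.49% to 7.02%. The lowered rows went from 79001, 77390 and 74344 CPM to 65266, 58106 and 61666 CPM, or from at least 9.79% in each DMSO library to between 7.52% and 8.34%. These sums describe rows picked for their difference in the same libraries and carry no test.

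Raised and lowered rows differed in where they lay along the expression range. The raised rows had a median of 14.1 CPM over the 6 libraries and the lowered rows one of 51.1 CPM, against 25.5 CPM over all members. Of the 810 members with a mean under 2 CPM, 81 rose and 17 fell, or 10% and 2.10%. Between 2 and 10 CPM, 203 of 2453 rose and 91 fell. Between 10 and 50 CPM the share called was lowest, at 7.10%, with 208 of 4662 rows raised and 123 lowered. The balance turned above 50 CPM: 116 rows rose and 157 fell of 2875 between 50 and 200 CPM, and 49 rose and 86 fell of 726 rows at 200 CPM and over. In the top class 18.6% of rows were called, in the bottom class 12.1%. The median log2 difference over all rows of a class, called or not, fell with level too. It was 0.079 under 2 CPM, 0.052 from 2 to 10 CPM and -0.00027 from 10 to 50 CPM. From 50 to 200 CPM it was -0.044, and at 200 CPM and over -0.056. The balance of raised and lowered rows thus went along with a shift of all rows with level, whose cause was not tested.

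The size of the change was also set out by level. Over all rows of a class the median size of the log2 difference was 0.149 under 2 CPM, 0.149 from 2 to 10 CPM, 0.111 from 10 to 50 CPM, 0.111 from 50 to 200 CPM and 0.154 at 200 CPM and over. The SD of a class median over the 3 pairs was 0.022 to 0.046, so the order of the classes is uncertain. Most rows of each class were not called. The pseudocount of 1 shrinks differences near the floor, and with 0.25 in its place the value of the lowest class was 0.218. On the log2(CPM + 1) scale, changes of at least 2-fold came from the lower and middle classes: 7, 25 and 17 raised rows from the 3 classes below 50 CPM, 2 from 50 to 200 CPM and 0 above. The 8 lowered rows of that size on this scale all had a mean between 2 and 50 CPM. The pseudocount keeps rows of the lowest class out of these counts. A lowered row with a mean of 1.24 CPM, for example, fell from 1.92 to 0.569 CPM, a log2 difference of only -0.90. Among called rows at 200 CPM and over, the median size was 0.423 for the raised and 0.288 for the lowered. Precision rose with level, since the median SD between the 3 pairs fell from 0.192 log2 units in the lowest class to 0.118 in the highest. A median row of the lowest class rested on 53.2 reads a library and one of the highest on 12896 reads.

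**Figure D1:**
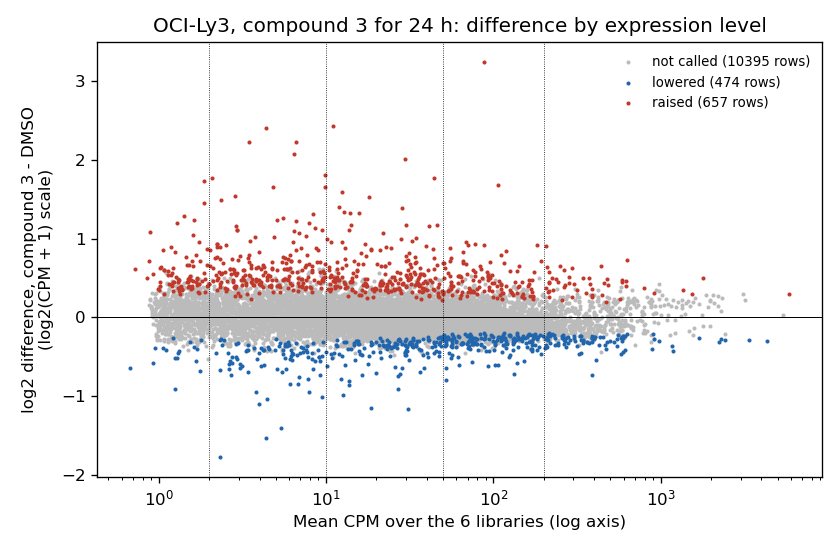
Log2 difference between compound 3 and DMSO (vertical axis, log2(CPM + 1) scale, mean of 3 pairs) against the mean CPM of the 6 OCI-Ly3 24 h libraries (horizontal, log axis), 1 point a row; dotted lines mark 2, 10, 50 and 200 CPM. The 657 raised rows (red) spread over the whole range with the tallest points below 200 CPM, and the 474 lowered rows (blue) are smaller changes that thicken above 50 CPM.

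Row 2626 rose most. Its level was 9.25, 19.5 and 19.2 CPM in the DMSO libraries and 108, 136 and 236 CPM in the compound libraries 1 to 3. Every compound library lay above every DMSO library, by 11.7-, 6.97- and 12.3-fold within the pairs. The means were 16.0 ± 5.8 and 160 ± 67 CPM (SD, n = 3 each), and the log2 difference was 3.24 (SE 0.12; limma adjusted p = 9.42e-09).

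Among rows that rose at least 1.5-fold, row 17573 had the highest level. With DMSO it stood at 380, 526 and 512 CPM and with compound 3 at 666, 757 and 925 CPM, and the groups did not overlap. Its means of 473 ± 81 and 783 ± 130 CPM (SD, n = 3 each) differed by 0.73 on the log2 scale (SE 0.08; limma adjusted p = 7.99e-05). It was not called without the pairing. The limma adjusted p was then 0.368 with the spread shared over the 24 compound libraries, and 0.0684 in the 6 libraries alone.

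Row 14203 fell most. It held 4.66, 3.23 and 4.58 CPM with DMSO and 0.557, 0.538 and 0.417 CPM with compound 3, so that a weakly expressed row dropped below 1 CPM in all 3 libraries. The means were 4.16 ± 0.81 and 0.504 ± 0.076 CPM (SD, n = 3 each), and the log2 difference was -1.77 (SE 0.15; limma adjusted p = 9.95e-06). On the scale of reads, with no pseudocount of 1, the log2 difference was -3.02 (edgeR).

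Row 19825 had the highest level of the rows that fell at least 1.5-fold. It held 524, 478 and 451 CPM with DMSO and 285, 284 and 302 CPM with compound 3. The compound libraries lay closer together than the DMSO libraries, with means of 484 ± 37 and 290 ± 9.7 CPM (SD, n = 3 each). The log2 difference was -0.73 (SE 0.07; limma adjusted p = 5.04e-05).

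**Figure D2:**
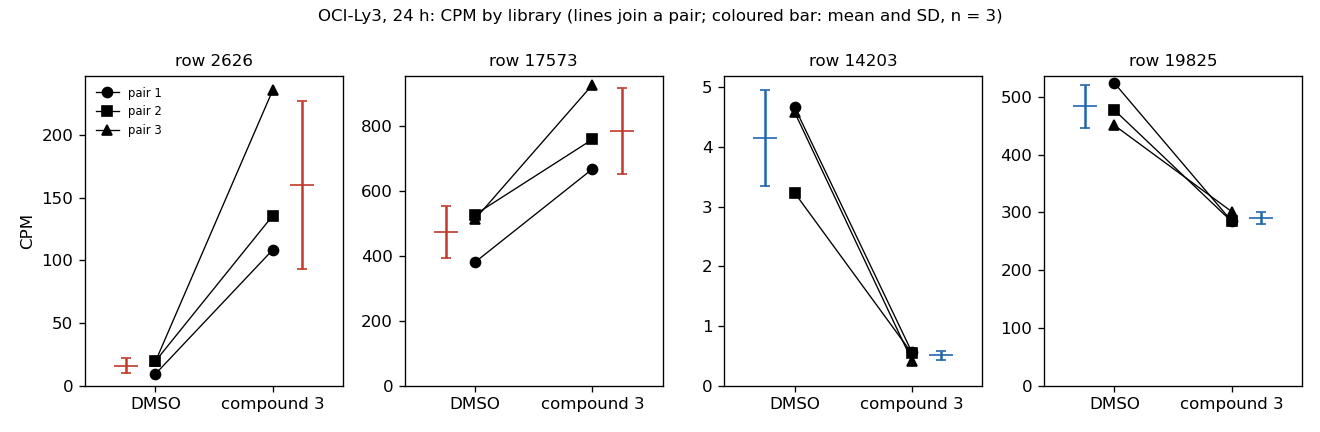
CPM (linear axes from 0) of rows 2626, 17573, 14203 and 19825 in the 6 OCI-Ly3 24 h libraries; lines join libraries of the same number and coloured bars give the mean and SD (n = 3). In each row the 3 lines run the same way and the groups do not overlap.

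The rows next in size, given without number, showed how unequal the evidence behind large differences was. The row with the rise ranked 2 held 3.22, 1.67 and 0.662 CPM with DMSO and 4.43, 10.7 and 45.4 CPM with compound 3, a log2 difference of 2.43 with an SE of 0.64 (limma adjusted p = 0.0306). Its rise rested mostly on pair 3, it was not called without the pairing (limma adjusted p = 0.0812), and it was at 0 in all 9 OCI-Ly3 hairpin libraries. It also held 1.64 ± 0.32 CPM with DMSO and 16.5 ± 9.3 CPM with the compound in TMD8 at 24 h (SD, n = 3 each; log2 difference 2.57, limma adjusted p = 0.458).

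The row ranked 3 held 0.304, 1.08 and 0.576 CPM with DMSO and 4.14, 9.46 and 10.6 CPM with compound 3 (log2 difference 2.40, SE 0.13; limma adjusted p = 7.43e-07). The row ranked 4 held 1.82, 1.61 and 1.61 CPM and then 10.2, 12.4 and 12 CPM, a rise in all pairs (log2 difference 2.22, SE 0.23; limma adjusted p = 5.04e-05). In both, the groups did not overlap.

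Of the rows that fell, the one ranked 2 held 6.67, 7.73 and 6.54 CPM with DMSO and 1.64, 1.76 and 1.88 CPM with compound 3 (log2 difference -1.53, SE 0.09; limma adjusted p = 7.62e-07). The row ranked 3 held 10.8, 6.17 and 7.75 CPM and 1.64, 2.79 and 3.03 CPM, with its deepest fall in pair 1 (log2 difference -1.40, SE 0.17; limma adjusted p = 0.000208). The row ranked 4 held 59.6, 31.4 and 39.9 CPM and 17.6, 18.2 and 19.3 CPM (log2 difference -1.16, SE 0.15; limma adjusted p = 0.000326). In the row ranked 4 the DMSO libraries were spread more widely than the compound libraries, and neither of these last rows was called without the pairing (limma adjusted p = 0.397 and 0.0798).

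Consistency over the pairs was examined next. Of all 11526 members, 5135 moved the same way in all 3 pairs, 44.6%, with 2434 up and 2701 down. Of the called rows, 656 of the 657 raised and 473 of the 474 lowered did so, which the test itself favours. The groups did not overlap in 534 of the raised and 382 of the lowered rows, against 2404 of all members, or 20.9%. The test favours this as well.

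The size of the response differed between pairs. Raised rows had median log2 differences of 0.42, 0.60 and 0.47 in pairs 1, 2 and 3, and lowered rows had -0.32, -0.39 and -0.31. Pair 2 gave the largest of the 3 differences in 360 of the raised and 252 of the lowered rows, but it did so also in 5225 of all members, and its differences had the widest SD over all rows (0.326, against 0.255 and 0.272). The smallest of the 3 differences was at least 0.5 of the largest in 350 raised rows, 53.3%, and 287 lowered rows, 60.5%. Over all members this held in 10.9%, but the rows were called from these same differences, so the contrast is a description. Across the 11526 rows, which are not independent replicates, the differences of pairs 1 and 2, 1 and 3, and 2 and 3 had Pearson correlations of 0.393, 0.536 and 0.638. The pairs share no library.

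**Figure D3:**
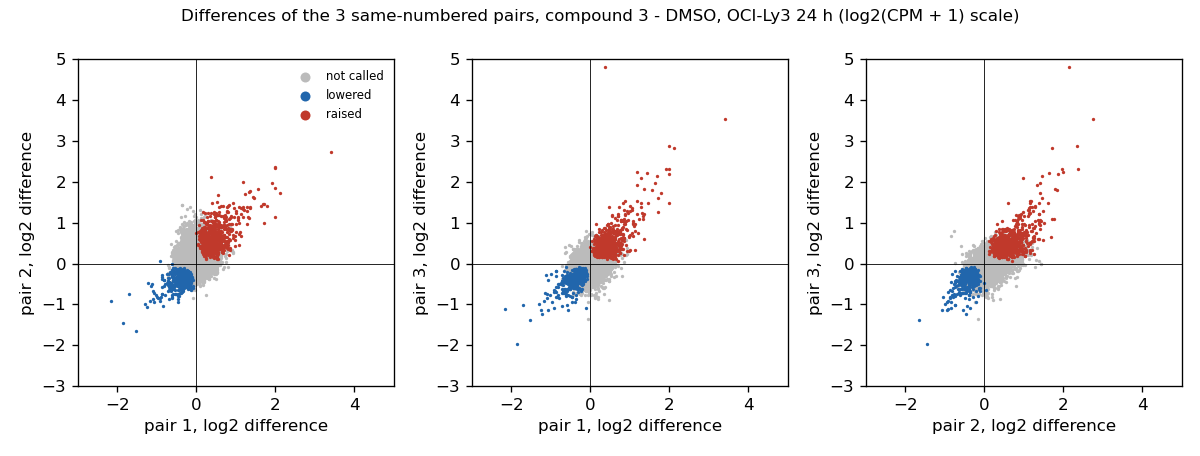
Log2 differences between compound 3 and DMSO of each row in 1 pair (horizontal axis) against another pair (vertical axis), log2(CPM + 1) scale, 1 point a row. Raised rows (red) and lowered rows (blue) fill opposite corners and the isolated point near 4.8 in pair 3 is the row with the rise ranked 2, which moved by only 0.36 in pair 1.

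Rows were called switched on when all 3 DMSO libraries lay below 1 CPM and all 3 compound libraries at or above it, and switched off in the reverse case. There were 36 rows switched on and 11 switched off. No switched row was at 0 reads throughout its lower group, so these are rows that crossed a level, not rows that were silent. The rows switched on went from a median of 0.663 CPM to 1.52 CPM, and those switched off from 1.28 to 0.778 CPM. Most crossed by little: the gap between the groups was under 0.5 CPM in 22 of the 36 and 8 of the 11. Of those switched on, 10 rose at least 2-fold on the log2(CPM + 1) scale and 10 reached 2 CPM or more. Of those switched off, 1 fell at least 2-fold on that scale. Adding 1 shrinks changes this near the floor, so in CPM itself more rows moved 2-fold. The second-largest switch off, for example, fell to 0.296 of its DMSO mean. These rows passed the filter only through the group in which they were high, so the counts are a description.

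The row with the largest switch on held 0.203, 0.850 and 0.547 CPM with DMSO and 4.22, 5.11 and 9.91 CPM with compound 3, from 57 to 748 reads in sum. The next held 0.101, 0.850 and 0.202 CPM and then 1.99, 4.74 and 4.59 CPM. The third held 0.203, 0.425 and 0.317 CPM and then 2.55, 4.06 and 3.57 CPM. All 3 were low but not silent in DMSO and rose in every pair. Row 14203, described above, was the largest switch off. The next fell from 1.70, 1.76 and 2.30 CPM to 0.504, 0.342 and 0.861 CPM.

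At the edge of the rule, the row switched on that was nearest to the limit had 0.680 CPM in its highest DMSO library and 1.01 CPM in its lowest compound library, and a row just outside had 1.01 and 1.22 CPM. A further 119 rows met the limit for switching on in 5 of the 6 libraries and 46 did so for switching off. For 22 of the 36 rows the switch on was not a state that OCI-Ly3 had otherwise lacked, since they held a mean of at least 1 CPM in DMSO at 8 h. In the OCI-Ly3 libraries with the non-targeting hairpin, 16 of the 36 held that level. In TMD8 with DMSO at 24 h, 19 of the 36 did.

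**Figure D4:**
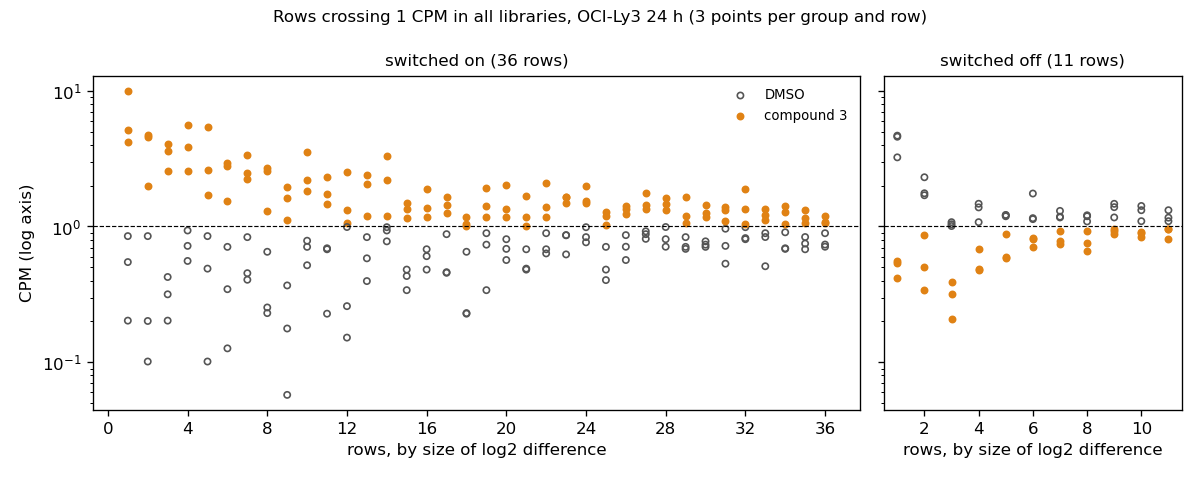
CPM (log axis) of the 36 rows switched on and the 11 switched off, ordered by the size of the log2 difference, with 3 open points for DMSO and 3 filled points for compound 3 per row; the dashed line is 1 CPM. The gap between the groups is under 0.5 CPM in 22 of the rows switched on and 8 of those switched off, and the rows with the largest differences, at the left of each panel, include the widest gaps.

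The 24 h response was compared with that at 8 h in libraries that share nothing with the 24 h ones except the estimate of the spread. The 657 raised rows had a median log2 difference of 0.09 at 8 h with 73.2% above 0, and the 474 lowered rows one of -0.09 with 82.1% below 0, against 0.01 and 52.7% above 0 over all members. At 8 h 46 rows were called, 0.399% of members, and 2 without the pairing. Of the lowered rows 21 were called lower at 8 h, 4.43%, against 0.364% of all members. Of the raised rows 2 were called higher at 8 h, against 0.0347% of all members. The 42 rows called lower at 8 h thus held 21 that were lowered and 5 that were raised at 24 h.

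The test of the difference between the times called 174 rows, 1.51% of members. The effect was higher at 24 h in 146, 1.27%, and lower in 28, 0.243%, and 132 and 25 of these were raised or lowered at 24 h. Row 2626 differed by 3.17 on the log2 scale (SE 0.17; limma adjusted p = 1.08e-06), having held 72.8 ± 42 CPM with DMSO and 78.8 ± 52 CPM with the compound at 8 h (SD, n = 3 each). Its lowest DMSO library at 8 h, 44.7 CPM, lay above all 3 DMSO libraries of 24 h. For row 14203 the change at 24 h was the lower, by -1.44 (SE 0.21; limma adjusted p = 0.00407). Row 19825 was already lower at 8 h, at 291 ± 66 against 534 ± 98 CPM (log2 difference -0.89, SE 0.07; limma adjusted p = 7.48e-05, and 0.0881 without the pairing), and its effects differed by 0.15 (SE 0.11; limma adjusted p = 0.581).

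Row 17573 moved in opposite directions at the times. At 8 h it held 643, 582 and 740 CPM with DMSO and 537, 383 and 537 CPM with compound 3, a fall in all 3 pairs, and the log2 difference was -0.44 (SE 0.08; limma adjusted p = 0.026). The effect at 24 h was higher by 1.17 (SE 0.11; limma adjusted p = 0.000178). Without the pairing limma called 0 rows different between the times, with 306 at an unadjusted p below 0.05, and row 17573 was called neither at 8 h nor between the times. With the pairing edgeR called 157 rows and DESeq2 248. Leaving out the 24 h pair numbered 2 or 3 gave 92 or 82 rows, and leaving out the 8 h pair numbered 1, 2 or 3 gave 73, 104 or 85. The TMD8 libraries enter through the shared estimate of the spread. With those of 24 h left unpaired 117 rows differed between the times, and in the 12 OCI-Ly3 libraries alone 118 did.

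In TMD8 the same treatment for 24 h called 4 rows, 0.0347% of members, with 2 higher and 2 lower, 0.0174% each. Without the pairing limma called 0, with 55 at an unadjusted p below 0.05. Members were chosen by their level in OCI-Ly3 at 24 h. Rows expressed only in TMD8 were therefore not tested, and rows silent in TMD8 had no room to fall there. The raised rows of OCI-Ly3 had a median log2 difference of 0.05 there with 67.0% above 0, and the lowered rows one of -0.00 with 52.3% below 0, against 0.00 and 51.7% above 0 over all members. The difference between the lines was called in 259 rows, 2.25% of members: 174 moved higher in OCI-Ly3, 168 of them raised there, and 85, 0.737%, moved lower, all of them lowered there. In TMD8 at 24 h only the libraries numbered 3 deviated alike from their group means (correlations -0.214, -0.176 and 0.795 for numbers 1 to 3). The pairing is therefore doubtful there, and with TMD8 at 24 h left unpaired 157 rows differed, 114 higher and 43 lower. With no pairing at all 3 did. Without the OCI-Ly3 pair numbered 1, 2 or 3 the count was 169, 158 or 137, and without the TMD8 libraries numbered 3 it was 134. None of the numbered rows was called for this difference when no libraries were paired.

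In TMD8, row 2626 stood at 67.3, 47.7 and 77.7 CPM with DMSO and at 94.9, 79.5 and 111 CPM with the compound, a smaller difference than in OCI-Ly3 by 2.66 on the log2 scale (SE 0.17; limma adjusted p = 9.73e-06). Its TMD8 level in DMSO was above that of OCI-Ly3 in every library. Row 14203 stood there at 5.63 ± 2.0 CPM with DMSO and at 4.99 ± 1.3 CPM with the compound (SD, n = 3 each), and the effects of the lines differed by -1.65 (SE 0.21; limma adjusted p = 0.00128). The differences of the effects were -0.52 for row 19825 and 0.47 for row 17573 (limma adjusted p = 0.0199 and 0.0471). The row with the fall ranked 2 was at most at 0.0301 CPM in any TMD8 library of 24 h.

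The level of the changed rows in the other line was read from the DMSO libraries of 8 h, which entered the 24 h calls only through the shared estimate of the spread. Raised rows were lower in TMD8 than in OCI-Ly3 by a median of -0.45 log2 units, against -0.13 over all members and -0.17 for the lowered rows. Of the raised rows 15.4% were at least 2-fold higher in TMD8 and 33.3% at least 2-fold higher in OCI-Ly3, against 8.32% and 15.2% of all members.

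The rows changed by compound 3 were then looked up in OCI-Ly3 cells with MALT1 hairpins, an experiment with no library in common. Of the 657 raised rows, both hairpins also raised 180, or 27.4%, and lowered 2, against 5.93% and 6.3% of all members. Of the 474 lowered rows, both hairpins also lowered 161, or 34.0%, and raised 4. The shared rows made up 26.3% of the 684 rows raised and 22.2% of the 726 lowered by both hairpins, which were each compared with the same non-targeting libraries. The raised rows had median log2 differences of 0.34 with hairpin 1 and 0.67 with hairpin 2, and the lowered rows -0.23 and -0.55, against 0.01 and 0.00 over all members. Hairpin 1 called 7.27% of all members higher and 8.52% lower, and of the raised rows 193 were higher and of the lowered rows 170 lower with it. Hairpin 2 alone called 26% of all members higher and 27.7% lower, and of the rows in question 63.8% of the raised were higher with it and 74.7% of the lowered were lower.

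Among raised rows the overlap went with the size of the change. Of the 51 that rose at least 2-fold with compound 3, both hairpins raised 35, or 68.6%. From 1.5- to 2-fold it was 52 of 166, and under 1.5-fold 93 of 440, or 21.1%. Lowered rows did not show this order, with 2 of 8, 18 of 48 and 141 of 418. Of the 36 rows switched on, 14 were raised by both hairpins, where 5.93% of all members were. Of the 11 switched off, 2 were lowered by both, where 6.3% of all members were. The switched rows are few and were picked by a threshold, so these counts are a description.

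The number raised by all 3 treatments was 46 without the pairing, 103 or 116 without the compound pair numbered 2 or 3, 118, 115 or 106 without hairpin 1 replicate 1, 2 or 3, and 287 without non-targeting replicate 2. The number lowered by all 3 was 6 without the pairing, 78, 49 or 66 without compound pair 1, 2 or 3, and 98 or 91 without hairpin 1 replicate 2 or 3.

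Non-targeting library 1 lay apart from the other two in several of the rows described. Leaving it out gave 184 rows raised and 169 lowered by all 3 treatments, against 180 and 161 with it. Row 2626 held 2.90, 21.8 and 20.4 CPM in the non-targeting libraries and rose to 215 ± 13 and 356 ± 71 CPM with hairpins 1 and 2 (SD, n = 3 each; limma adjusted p = 4.56e-05 and 7.47e-07). Row 17573 rose by 0.61 and 0.79 on the log2 scale (SE 0.09; limma adjusted p = 0.000459 and 3.76e-06). Row 14203 fell from 13.1, 3.75 and 4.08 CPM to between 0.900 and 1.16 CPM with hairpin 1 and between 0.546 and 0.983 CPM with hairpin 2 (log2 differences -1.76 and -2.00, SE 0.28; limma adjusted p = 0.00099 and 3.2e-05).

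Rows that compound 3 lowered did not all fall with the hairpins. Row 19825 held 382, 759 and 753 CPM with the non-targeting hairpin, 785 ± 15 CPM with hairpin 1 (log2 difference 0.38, limma adjusted p = 0.144) and 994 ± 2.9 CPM with hairpin 2, a rise of 0.72 (SE 0.18; limma adjusted p = 0.00296). The row with the fall ranked 2 held 8.40 ± 2.2 CPM with the non-targeting hairpin, 7.58 ± 0.66 CPM with hairpin 1 and 11 ± 1.6 CPM with hairpin 2 (limma adjusted p = 0.553 and 0.0216), and it fell with compound 3 already at 8 h, from 11.7 ± 2.0 to 3.90 ± 1.5 CPM (limma adjusted p = 6.95e-06). The row with the fall ranked 3 fell with hairpin 1 and rose with hairpin 2, by -0.89 and 0.75 (limma adjusted p = 0.000829 and 0.000335).

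**Figure D5:**
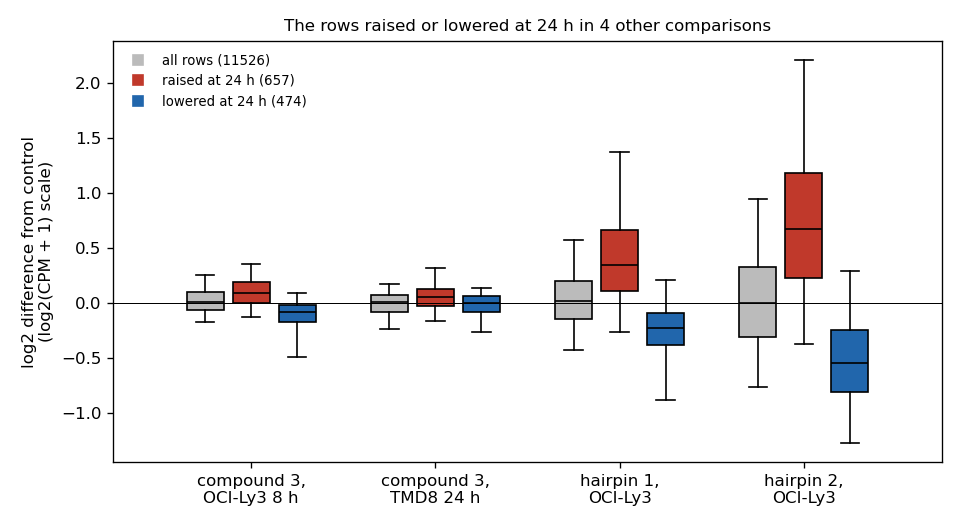
Log2 differences from control (vertical axis, log2(CPM + 1) scale) of all 11526 rows (grey), the 657 raised (red) and the 474 lowered rows (blue) in 4 other comparisons, of which those of compound 3 share with the 24 h calls the estimate of the spread but no library of the difference; boxes give quartiles and median, whiskers the central 90%. Red and blue boxes lie apart with both hairpins (medians 0.34 and -0.23, 0.67 and -0.55), little at 8 h and hardly in TMD8.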

How the data were processed

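Libraries were made with a stranded mRNA kit, per the labels' protocols, and reads were aligned with STAR to hg19, per the submitters' processing notes. Tool versions, the counter and its handling of strand were not given in the sources used here. Rows that share reads could therefore not be set apart. Values were deposited by the authors as CPM, computed over a total larger than the reads in the 23250 rows. All values (100%) were whole multiples of their library's smallest value within 1e-06, which recovers the reads. Groups and replicate numbers come from the sample titles.

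Rows that reached 1 CPM in 3 or more of the 6 libraries were tested with limma 3.58.1 (R 4.3.3) on log2(CPM + 1), in 1 model of the 24 compound libraries that share an estimate of the spread (8 residual and 5.20 prior degrees of freedom), with a treatment effect per line and time, a block per line, time and replicate number, eBayes with a trend, and p-values adjusted (Benjamini-Hochberg) over 11526 rows. The hairpin fit used group means of 18 libraries and no block. The same numbers were taken as pairs. The deviations of same-numbered OCI-Ly3 24 h libraries from their group means correlated at 0.526, 0.388 and 0.620. At 8 h these correlations were 0.717 to 0.824 in OCI-Ly3 and 0.750 to 0.923 in TMD8. In TMD8 at 24 h they were -0.214, -0.176 and 0.795, so only the libraries numbered 3 deviated alike. Count tests of these reads with edgeR 4.0.16 (TMM and its quasi-likelihood test) and DESeq2 1.42.0 (Wald), with the block, were alternatives, and called 975 and 1147 rows.

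In simulated data for the 24 h comparison on 11526 rows, the fit with the block recovered 86.6% of 1.5-fold, 95.5% of 2-fold and 100% of 4-fold changes with 8 false calls. The fit without it recovered 20.9%, 89.6% and 100% with 0 false calls. The simulation gave same-numbered libraries a fully shared shift, so it favours the block by construction. It cannot tell whether the real libraries pair. Rows named by number were, in each direction, the one with the largest difference and the one with the highest mean CPM among those changed at least 1.5-fold, called and moving alike in all 3 pairs. Members, tests and this rule were chosen with earlier results of these data known.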

Additional observations from a re-analysis of the deposited data

Results flagged for a closer look

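Effects that differed between times or lines were set out for a closer look because the difference itself was tested and passed the threshold (limma with the pairing, adjusted p below 0.05). In OCI-Ly3 the effects at 24 h and at 8 h differed in 174 rows, and between OCI-Ly3 and TMD8 at 24 h 259 rows did. The pairing of TMD8 at 24 h is doubtful, and with it left out 157 rows differed between the lines and 117 between the times. The difference between times was 3.17 log2 units for row 2626, 1.17 for row 17573 and -1.44 for row 14203. The difference between lines, OCI-Ly3 minus TMD8, was 2.66 for row 2626, 0.47 for row 17573, -1.65 for row 14203 and -0.52 for row 19825. Without the pairing, none of these row differences passed the threshold (limma adjusted p 0.201 or higher for the times and 0.331 or higher for the lines).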

How the results depend on the processing

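The number of rows changed at 24 h ranged from 812 to 1293 under other pseudocounts, filters, scaling, tools and fits that kept the OCI-Ly3 pairs. It was 102 with no replicate block and 116 with no replicate block in the 6 libraries alone, and 409 to 770 without 1 pair. In the fit without the block, leaving out 1 of the 6 libraries, chosen after seeing the data, gave 20 to 68 rows. The effect differed between times in 0 rows without the block (limma; edgeR 157 and DESeq2 248 with it) and in 73 to 140 without 1 pair. With TMD8 at 24 h unpaired it differed between times in 117 rows, and in the 12 OCI-Ly3 libraries alone in 118. The effect differed between lines in 3 rows without the block, in 157 with TMD8 at 24 h unpaired, a fit chosen after seeing the data, and in 134 to 280 without 1 pair. Rows raised with both hairpins too were 46 without the block and 103 to 287 without 1 library or pair, and rows lowered too were 6 and 49 to 206. A block by number in the hairpin fit gave 170 and 141. Rows switched off were 7 at 0.5 CPM, 4 at 2 CPM and 24 to 30 without 1 pair, and rows switched on 67 to 89 without 1 pair, where fewer libraries have to meet the limit. With a pseudocount of 0.25 the median size under 2 CPM was 0.218. The 4 numbered rows kept their direction in every setting in which they were tested. They were picked for moving alike in all 3 pairs, so leaving out a pair could not reverse them. Dropping the block or changing the filter leaves the difference itself unchanged. Row 17573 was not called in either fit without the block. Row 14203 is left out by a filter of 1 CPM in all 6 libraries. For the other changes the cause was not tested. Rescaling moved the median difference of all rows from -0.0016 to -0.0035. At 1 CPM a row rests on 34.7 to 40.9 reads, which limits its precision.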
